A study of Mus musculus with 8 samples.

Results

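The genes described here sense cholesterol in the cell and carry it out of the cell: Srebf1, Srebf2, Scap, Insig1, Insig2, Nr1h2, Nr1h3, Abca1 and Abcg1. They were chosen by name as regulators of the sterol regulatory element-binding proteins (SREBPs) and as liver X receptor (LXR) efflux genes, and are 9 of the 51789 genes in the deposited count table. RNA was sequenced from whole mammary glands of female C57BL/6 mice, taken 6 weeks after a single injection of small extracellular vesicles (sEVs) into the gland. In 3 glands the injection held sEV CTRL, prepared from fresh medium that no cells had conditioned. In 3 glands it held sEV NORM and in 2 glands sEV HYP, released in normoxia or hypoxia by AT3, a line of metastatic adenocarcinoma cells from mouse mammary gland. All 3 groups share the strain, the injection and the vesicle preparation. The ages of the mice are not given in the sources used here and both tumor vesicle groups rest on a single cell line. The study counts its replicates in this experiment as animals, although the labels name no animal for a library.

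A cell reads its cholesterol in the membrane of the endoplasmic reticulum. When sterol is low, SCAP escorts the SREBPs to the Golgi, where proteases free the part that enters the nucleus and switches on genes of sterol and fatty acid synthesis and uptake. When sterol is high, the INSIG proteins hold SCAP and its cargo back. When oxidized sterols build up, the LXRs, encoded by Nr1h2 and Nr1h3, switch on ABCA1 and ABCG1, transporters that load cholesterol onto lipoprotein particles outside the cell. In the mammary gland the same machinery serves adipocytes, macrophages and the epithelium that makes milk fat.

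Of the 9 genes, Srebf1 and Insig1 rose with sEV HYP against both other groups, at an unadjusted P in edgeR. After adjustment over all genes, neither passed in edgeR, and with DESeq2 on the groups compared both passed against sEV NORM and neither against sEV CTRL. Srebf1 was 1.69-fold higher than with sEV NORM and 1.63-fold higher than with sEV CTRL, and Insig1 was 2.06-fold and 1.77-fold higher. The other 7 genes, among them the LXRs and both transporters, did not pass the test in any comparison. No gene of the 9 passed between sEV NORM and sEV CTRL.

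The promoters of the genes that rose are shown because both genes are known to be under feedback from SREBPs. The windows run from 250 bases before to 50 bases after each start site listed by RefSeq (GRCm38.p6), and RefSeq gave 14 windows for 8 of the 9 genes. Abcg1 had none. Capitals mark matches on either strand to the box CCAAT bound by the factor NF-Y, to the GC box GGGCGG, and to the E box CACGTG, which basic helix-loop-helix factors bind. Insig1, on the plus strand of chr5:28071162-28071461, has 1 window.

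Insig1: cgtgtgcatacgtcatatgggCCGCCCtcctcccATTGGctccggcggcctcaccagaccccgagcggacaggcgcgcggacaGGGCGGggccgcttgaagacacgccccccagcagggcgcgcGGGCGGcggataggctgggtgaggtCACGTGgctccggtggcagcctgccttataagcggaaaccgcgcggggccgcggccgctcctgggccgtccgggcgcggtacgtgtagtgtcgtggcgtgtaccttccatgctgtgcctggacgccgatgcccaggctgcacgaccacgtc

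Srebf1 has 3 windows on the minus strand, with starts of different transcripts. The first is chr11:60222532-60222831, the second chr11:60220578-60220877 and the third chr11:60210422-60210721.

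Srebf1 first window: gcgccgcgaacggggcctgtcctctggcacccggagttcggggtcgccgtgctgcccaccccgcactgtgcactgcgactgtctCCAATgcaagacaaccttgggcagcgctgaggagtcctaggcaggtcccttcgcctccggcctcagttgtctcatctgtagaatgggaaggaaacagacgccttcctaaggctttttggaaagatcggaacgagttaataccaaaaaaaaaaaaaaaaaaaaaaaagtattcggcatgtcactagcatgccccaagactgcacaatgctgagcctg
Srebf1 second window: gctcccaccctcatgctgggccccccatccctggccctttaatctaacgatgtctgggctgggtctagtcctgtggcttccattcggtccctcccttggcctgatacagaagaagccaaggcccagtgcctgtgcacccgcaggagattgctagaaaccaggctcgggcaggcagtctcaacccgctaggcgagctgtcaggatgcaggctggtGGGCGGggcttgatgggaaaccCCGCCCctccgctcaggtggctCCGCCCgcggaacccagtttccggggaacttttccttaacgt
Srebf1, the third window: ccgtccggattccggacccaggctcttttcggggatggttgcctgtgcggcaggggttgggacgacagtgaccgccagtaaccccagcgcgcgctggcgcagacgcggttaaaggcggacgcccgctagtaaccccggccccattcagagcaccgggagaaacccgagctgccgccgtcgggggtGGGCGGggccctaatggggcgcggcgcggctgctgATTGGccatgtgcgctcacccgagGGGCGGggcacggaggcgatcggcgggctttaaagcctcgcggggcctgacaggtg

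In the Insig1 window, GC boxes begin at -167 and -126 from the start site on the strand shown and at -229 on the opposite strand (printed as CCGCCC). The opposite strand also has the CCAAT box at -216 (printed as ATTGG), and an E box, the same on both strands, lies at -101. The first Srebf1 window holds a CCAAT box at -166. The second holds a GC box at -36 and, on the opposite strand, others at -14 and 9. The third holds GC boxes at -65 and -6 and, on the opposite strand, a CCAAT box at -30. Across 32544 RefSeq mouse promoters of the same length, 37.4% held CCAAT, 35.9% held GGGCGG and 7.17% held CACGTG. The E box was in windows of 3 of the 8 genes that had a window, Scap (the same box in 2 overlapping windows), Insig1 and Abca1. This count is by gene, with up to 3 windows each, whereas the share of 7.17% is by promoter. The sterol regulatory element in the form TCACNCCAC, searched on both strands, was in 402 promoters (1.24%) and in 0 windows of the 9 genes, which says only that these letters are not in these windows. These matches are a description of the sequence and not of binding.

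The deposited values are whole-number counts per gene, and total counts per library were 18194996 to 24622569. They were normalized to CPM (counts per scaled library) with edgeR, and levels are compared between genes as CPM per kilobase of exon. The 9 genes held 0.0726% to 0.0907% of the counts of a library, with 285 to 12094 counts per gene and library, and all 9 passed the filter on low counts. In order of mean level over the 8 libraries, Abca1 was highest at 44.1 CPM per kilobase (range 33.8 to 54.0), above 94.1% of the genes tested. Insig1 followed at 33.7 (16.4 to 65.1) and Insig2 at 13.0 (10.9 to 15.3). Then came Srebf1 at 8.44 (5.78 to 12.7), Abcg1 at 7.69 (5.97 to 9.28), Nr1h3 at 7.29 (6.16 to 9.73), Nr1h2 at 5.57 (4.55 to 7.67) and Srebf2 at 4.78 (3.22 to 6.03). Scap was lowest at 2.63 CPM per kilobase (2.18 to 3.76), above 44.8% of the genes tested. The ranges of neighbours in this order overlapped, except that the lowest Insig1 library lay above the highest of Insig2.

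Insig1 varied most among the 9, with a coefficient of variation of 45.0% over the 8 libraries and a 3.98-fold span from the lowest to the highest. Srebf1 was second, at 29.8% and 2.20-fold. The other 7 had coefficients of variation of 10.3% (Insig2) to 19.8% (Scap). The median over the 9 genes was 17.3%, and over all 17858 genes tested it was 22.04%.

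Srebf1 (ENSMUSG00000020538, GRCm38 chromosome 11, 60199089 to 60222581, minus strand) encodes SREBP1, the member of the family that favours fatty acid synthesis. It was at 38.5, 32.6 and 53.7 CPM with sEV CTRL, at 38.1, 36.6 and 45.4 CPM with sEV NORM, and at 71.6 and 63.9 CPM with sEV HYP. Both sEV HYP glands lay above every gland of the other groups, and the sEV CTRL and sEV NORM glands overlapped. The means were 41.6 ± 10.9 (SD, n = 3), 40.01 ± 4.69 (SD, n = 3) and 67.8 ± 5.44 CPM (SD, n = 2). The log2 fold change of sEV HYP was 0.76 against sEV NORM (SE 0.22, 95% interval 0.27 to 1.25, edgeR unadjusted P = 0.00670, adjusted P = 1.00) and 0.70 when set against sEV CTRL (SE 0.22, interval 0.212 to 1.196, unadjusted P = 0.0101, adjusted P = 1.00). The glands of sEV NORM and sEV CTRL differed by -0.06 (SE 0.20, unadjusted P = 0.784, adjusted P = 1.00). The counts do not tell the transcripts of Srebf1 apart. Exons of Srebf1 overlap those of Rai1 on the opposite strand, and the strand used in counting is not given in the sources used here. Rai1 was at 14.0 to 19.5 CPM and its log2 fold change with sEV HYP was -0.07 when set against sEV NORM and 0.10 when set against sEV CTRL.

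Insig1 (ENSMUSG00000045294, chromosome 5, 28071363 to 28078662, plus strand) encodes an anchor of SCAP in the endoplasmic reticulum and is itself switched on by SREBPs. It was at 97.1, 50.6 and 127 CPM with sEV CTRL, at 75.5, 70.8 and 89.3 CPM with sEV NORM, and at 201 and 123 CPM with sEV HYP. Both sEV HYP glands were above every sEV NORM gland, whereas sEV CTRL replicate 3 was above the lower sEV HYP gland. The means were 91.6 ± 38.6 (SD, n = 3), 78.5 ± 9.61 (SD, n = 3) and 162 ± 55.7 CPM (SD, n = 2). The log2 fold change of sEV HYP was 1.05 against sEV NORM (SE 0.35, interval 0.26 to 1.83, edgeR unadjusted P = 0.0147, adjusted P = 1.00) and 0.82 when set against sEV CTRL (SE 0.35, interval 0.04 to 1.61, unadjusted P = 0.0422, adjusted P = 1.00). For sEV NORM over sEV CTRL the value was -0.22 (SE 0.32, unadjusted P = 0.499, adjusted P = 1.00).

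These P values are from edgeR's quasi-likelihood test in a fit of all 3 groups. With sEV HYP, 3.95% of all genes tested had an unadjusted P under 0.05 against sEV NORM (2.25% higher, 1.7% lower) and 2.45% against sEV CTRL (1.39% higher, 1.06% lower). The 2 genes called higher of 9 stand beside these shares. Between sEV NORM and sEV CTRL, where 0 of the 9 were called, the share was 1.62% (0.89% higher, 0.734% lower). Groups without overlap occurred in 22.8% of genes for sEV HYP against sEV NORM, in 12.8% against sEV CTRL and in 4.86% for sEV NORM against sEV CTRL. With Benjamini-Hochberg adjustment, 0 genes (0%) passed in edgeR in each comparison, against 706, 438 and 290 genes at an unadjusted P under 0.05. DESeq2 fitted on sEV HYP and sEV NORM alone called 83 genes after adjustment (0.499%), and Srebf1 (adjusted P = 0.0191) and Insig1 (adjusted P = 0.0182) were among them. Against sEV CTRL the same tool called 14 genes (0.0543%), and the adjusted P of both genes was 1.00.

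Against sEV NORM, Srebf1 had P under 0.05 in all 18 alternative fits, with log2 fold changes of 0.68 to 0.91, and Insig1 in 17 of 18. Insig1 lost the call without sEV HYP replicate 1, at 0.65 (edgeR unadjusted P = 0.151). Against sEV CTRL, Srebf1 held in 17 of 18, the exception again being the fit without sEV HYP replicate 1 (0.62, edgeR unadjusted P = 0.0604), and Insig1 in 9 of 18, with 0.42 to 1.13. It was lowest when sEV HYP replicate 1 was left out (0.42), followed by sEV CTRL replicate 2 (0.53).

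**Figure D1:**
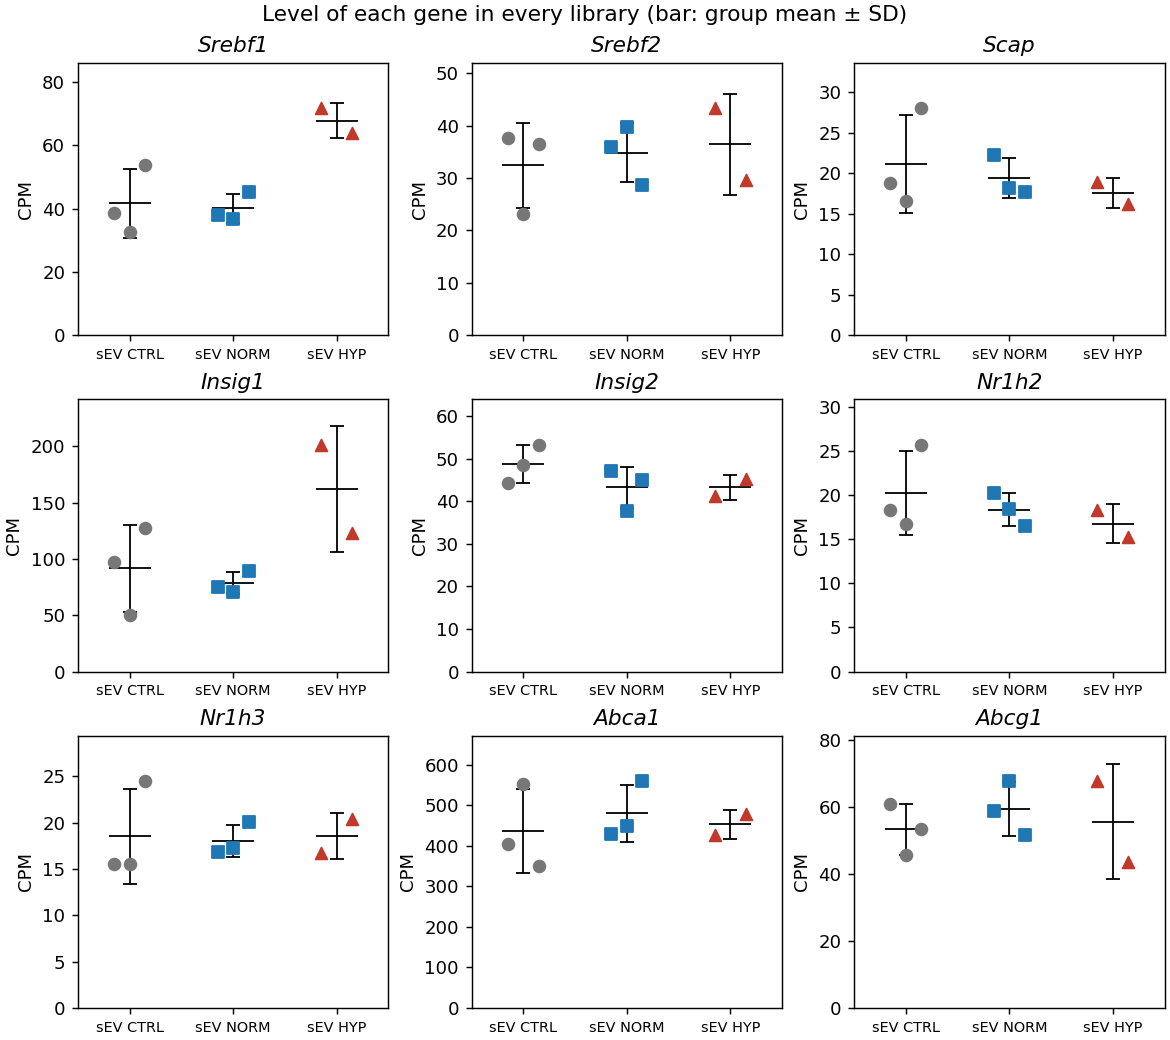
CPM of each of the 9 genes (vertical axis, linear from 0) in the glands of sEV CTRL (circles), sEV NORM (squares) and sEV HYP (triangles), with bars for the group mean ± SD. The sEV HYP glands stand above all others for Srebf1, at 63.9 and 71.6 CPM, and for Insig1 the higher of them is at 201 CPM, whereas the groups of the other genes overlap.

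The partners of these genes in sterol sensing had fold changes closer to 0. Srebf2 (ENSMUSG00000022463, chromosome 15, 82147181 to 82205379, plus strand) encodes SREBP2, the main driver of cholesterol synthesis. It was at 37.6, 23.1 and 36.4 CPM with sEV CTRL, 35.96, 39.8 and 28.8 with sEV NORM, and 43.3 and 29.6 with sEV HYP. The groups overlapped, and the log2 fold change of sEV HYP was 0.07 against sEV NORM (95% interval -0.53 to 0.66) and 0.17 against sEV CTRL (-0.42 to 0.76).

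Scap (ENSMUSG00000032485, chromosome 9, 110333288 to 110384950, plus strand), the escort of the SREBPs, was at 18.8, 16.6 and 28.0 CPM with sEV CTRL, 22.2, 18.2 and 17.7 with sEV NORM, and 18.9 and 16.2 with sEV HYP. Its highest gland was sEV CTRL replicate 3, and the groups overlapped. The log2 fold change of sEV HYP was -0.14 against sEV NORM (interval -0.70 to 0.41) and -0.27 against sEV CTRL (-0.83 to 0.29).

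Insig2 (ENSMUSG00000003721, chromosome 1, 121304353 to 121332589, minus strand) encodes the second anchor of SCAP, whose gene is not under the same SREBP feedback as Insig1 in liver. It was at 44.4, 48.4 and 53.2 CPM with sEV CTRL, 47.1, 37.7 and 44.9 with sEV NORM, and 41.2 and 45.3 with sEV HYP. It was the least variable of the 9 genes. The log2 fold change of sEV HYP was 0.00 against sEV NORM (interval -0.37 to 0.37) and -0.17 against sEV CTRL (-0.54 to 0.20).

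Neither LXR gene passed the test. Nr1h2 (ENSMUSG00000060601, chromosome 7, 44549616 to 44553951, minus strand) encodes LXR beta, found in most tissues, and was at 18.3, 16.7 and 25.7 CPM with sEV CTRL, 20.2, 18.4 and 16.5 with sEV NORM, and 18.3 and 15.3 with sEV HYP. Its log2 fold change with sEV HYP was -0.13 against sEV NORM (interval -0.64 to 0.38) and -0.27 against sEV CTRL (-0.78 to 0.24). Nr1h3 (ENSMUSG00000002108, chromosome 2, 91184061 to 91202834, minus strand) encodes LXR alpha, abundant in liver, fat and macrophages, and was at 15.5, 15.6 and 24.5 CPM with sEV CTRL, 16.8, 17.3 and 20.01 with sEV NORM, and 16.8 and 20.3 with sEV HYP. Its log2 fold change with sEV HYP was 0.04 against sEV NORM (interval -0.50 to 0.58) and 0.00 against sEV CTRL (-0.54 to 0.55). For both LXR genes the highest gland was sEV CTRL replicate 3, and the groups overlapped.

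Abca1 (ENSMUSG00000015243, chromosome 4, 53030787 to 53159895, minus strand) encodes the transporter that passes cholesterol to lipid-poor apolipoprotein. It was at 405, 552 and 351 CPM with sEV CTRL, 430, 450 and 559 with sEV NORM, and 427 and 478 with sEV HYP. The log2 fold change of sEV HYP was -0.08 against sEV NORM (interval -0.60 to 0.43) and 0.05 against sEV CTRL (-0.46 to 0.57). Abcg1 (ENSMUSG00000024030, chromosome 17, 31057675 to 31117988, plus strand) encodes a transporter that passes cholesterol to mature high-density lipoprotein. It was at 61.0, 45.6 and 53.3 CPM with sEV CTRL, 58.8, 67.6 and 51.6 with sEV NORM, and 67.7 and 43.6 with sEV HYP. The sEV HYP glands were the highest and the lowest of the 8. Its log2 fold change with sEV HYP was -0.09 against sEV NORM (interval -0.60 to 0.41) and 0.06 against sEV CTRL (-0.44 to 0.57). With intervals this wide, a P above 0.05 does not show that the levels of these 7 genes did not differ.

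For sEV NORM over sEV CTRL, the log2 fold changes of the 9 genes ran from -0.22 (Insig1) to 0.15 (Abcg1). The median over the 9 genes was -0.06, beside -0.00 over all genes tested. In sEV HYP over sEV NORM it was 0.00 and in sEV HYP over sEV CTRL 0.05, beside -0.02 over all genes in each.

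**Figure D2:**
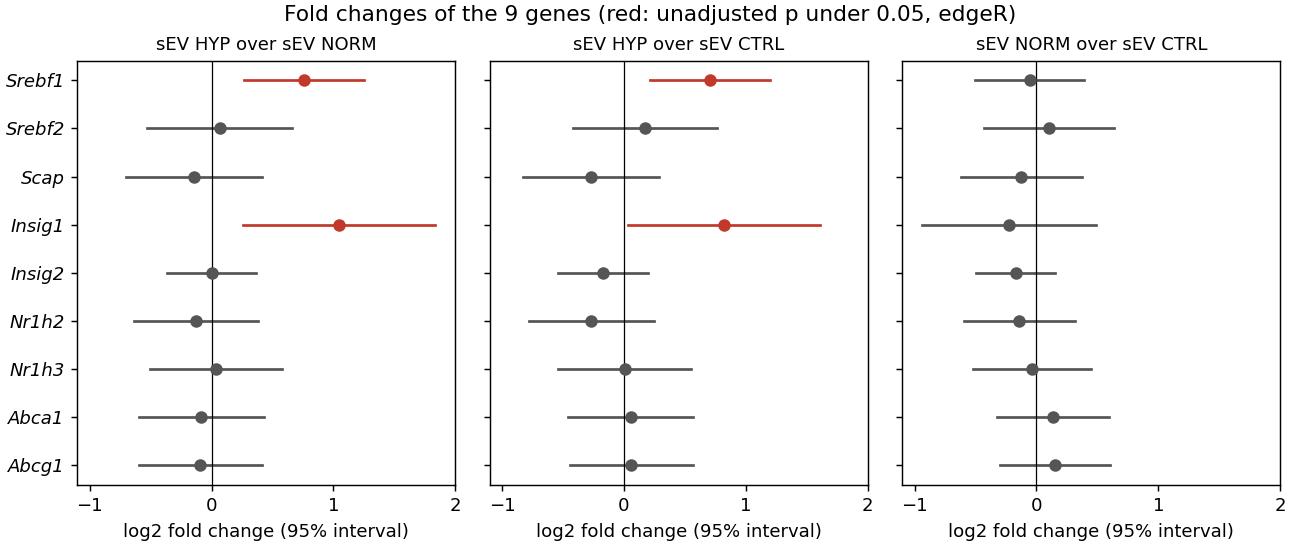
Log2 fold change (horizontal axis) of each of the 9 genes with its 95% interval, for sEV HYP over sEV NORM, sEV HYP over sEV CTRL and sEV NORM over sEV CTRL. Red marks an unadjusted edgeR P under 0.05, which only Srebf1 (0.76 and 0.70) and Insig1 (1.05 and 0.82) had, and the intervals of the other genes cross 0.

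Ratios within a gland compare genes without the scaling between libraries. The ratio of Srebf1 to Srebf2, in CPM per kilobase, was 1.30 to 1.88 with sEV CTRL, 1.17 to 2.01 with sEV NORM and 2.11 to 2.75 with sEV HYP. The ratio of Insig1 to Insig2 was 1.17 to 2.68 with sEV CTRL, 1.80 to 2.23 with sEV NORM and 3.04 to 5.48 with sEV HYP. The ratio of Insig1 to Scap had a mean of 10.2 with sEV CTRL and 9.89 with sEV NORM, and was 18.2 to 25.7 with sEV HYP. For these 3 ratios, both sEV HYP glands lay above all other glands. The mean log2 difference between sEV HYP and sEV NORM was 0.71 for Srebf1 over Srebf2 (exact permutation test, two-sided, P = 0.2) and 1.00 for Insig1 over Insig2 (exact P = 0.1), and with 2 glands against 3 this test cannot go below 0.1. The ratio of Nr1h3 to Nr1h2 had means of 1.21, 1.33 and 1.50 for sEV CTRL, sEV NORM and sEV HYP, and that of Abca1 to Abcg1 of 5.94, 5.82 and 6.09. The groups overlapped for both.

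Across the 8 glands, Srebf1 and Insig1 varied together in log2 CPM. Pearson's r was 0.93 (exact permutation P = 4.46e-04, adjusted P over the 36 pairs of the 9 genes 0.00804) and Spearman's rho 0.95 (adjusted P = 0.0411, permutation). Without both sEV HYP glands, which were farthest from the median Srebf1 level, r was 0.90, and within groups, after subtracting group means, it was 0.88. Scap and Nr1h2 gave r = 0.98 (exact permutation P = 2.98e-04, adjusted P = 0.00804; rho 0.88, adjusted P = 0.0869), 0.90 without the 2 glands farthest from the median, and 0.98 within groups. Srebf2 and Abcg1 gave r = 0.87 (exact permutation P = 0.00360, adjusted P = 0.0432; rho 0.90, adjusted P = 0.0821), 0.95 without the 2 farthest glands and 0.91 within groups. No other pair had an adjusted P under 0.05 for r, and only the pair of Srebf1 and Insig1 passed for rho.

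**Figure D3:**
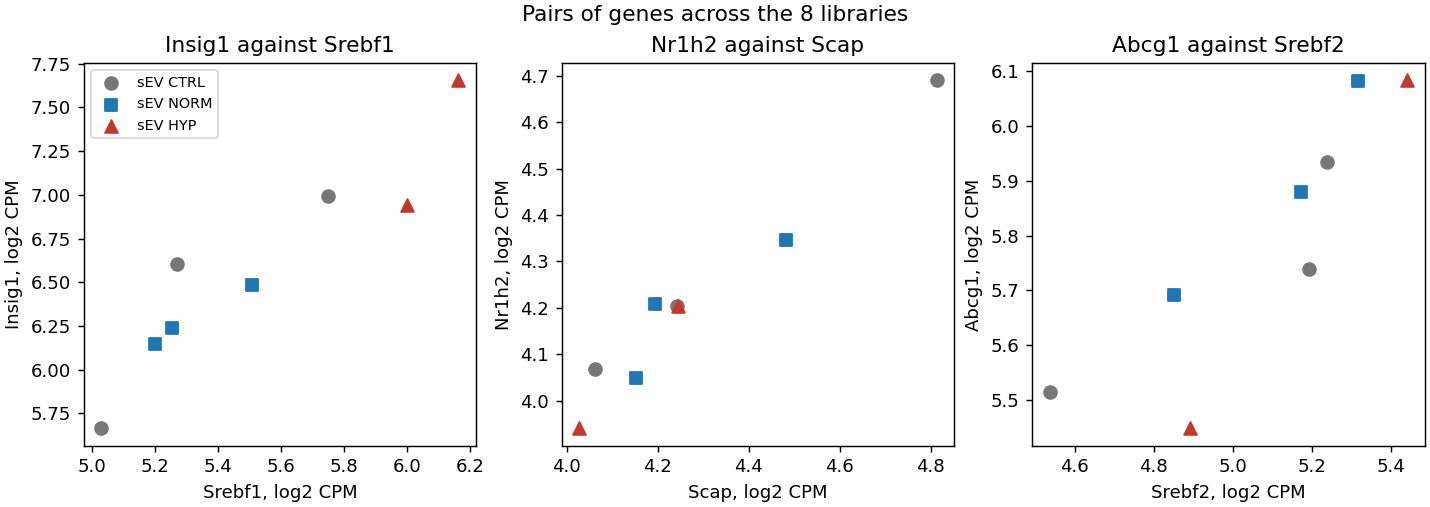
Log2 CPM of Insig1 against Srebf1, of Nr1h2 against Scap and of Abcg1 against Srebf2, with a point for each of the 8 glands (circles sEV CTRL, squares sEV NORM, triangles sEV HYP). In the first panel the points rise together within and across groups (r = 0.93), and in the second sEV CTRL replicate 3 is at the upper right.

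Among all tested genes, the profile of Srebf1 over the 8 glands was most like those of Foxk2 (r = 0.98), a forkhead factor, Tnfrsf12a (0.97), a receptor of the TNF family, and B3glct (0.94), a glycosyltransferase. That of Insig1 was most like Tecr (0.97), an enzyme of very long chain fatty acid elongation, Gpd1 (0.96), which makes glycerol 3-phosphate, and Derl1 (0.96), a channel component for degradation of endoplasmic reticulum proteins. Abca1 was most like Atp8b1 (1.00), a phospholipid flippase, B4galt4 (0.98) and Gm42717 (0.98). Abcg1 was most like Dpy19l3 (0.99), the immunoglobulin light chain segment Igkv6-15 (0.98) and Runx3 (0.98), a lymphocyte transcription factor. These are the highest of 17858 correlations, picked for being highest, and carry no test.

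Genes of the pathway beyond the 9 were read from lists. The list of cholesterol synthesis genes, the targets of SREBP2, had 20 of 20 members tested. With sEV HYP, 10 were higher and 0 lower against sEV NORM, and 8 and 0 against sEV CTRL, beside 2.25% and 1.39% of all genes called higher. All 20 had a log2 fold change above 0 in both comparisons, with medians of 0.70 and 0.45. These counts rest in large part on sEV HYP replicate 1. Without it, 4 were higher against sEV NORM (17 above 0, median 0.44) and 2 against sEV CTRL (14 above 0, median 0.13), with 0 lower in both. Hmgcs1, which makes the precursor of mevalonate, was at 55.6 to 62.5 CPM with sEV CTRL, 43.0 to 57.2 with sEV NORM, and 92.6 and 90.5 with sEV HYP (log2 fold change against sEV NORM 0.93, SE 0.17, edgeR unadjusted P = 3.09e-04). Sc5d, an enzyme late in the pathway, was at 148 to 214 CPM with sEV CTRL, 109 to 122 with sEV NORM, and 284 and 211 with sEV HYP. Its log2 fold change with sEV HYP was 1.08 against sEV NORM (SE 0.20, edgeR unadjusted P = 4.20e-04). The lower sEV HYP gland lay within the sEV CTRL range. Hsd17b7 (0.91), Idi1 (0.81) and Cyp51 (1.00) had the next smallest P values. Against sEV CTRL, Idi1 (0.72), Hmgcs1 (0.61), Hsd17b7 (0.76), Nsdhl (0.87) and Cyp51 (0.83) led the list. In sEV NORM against sEV CTRL, 0 of the list were higher and 2 lower, Sc5d (-0.59, edgeR unadjusted P = 0.0105) and Fdft1 (-0.51, edgeR unadjusted P = 0.0328). Over all genes tested, 0.89% were higher and 0.734% lower in that comparison. Of the 20, 18 were below 0 there, with a median of -0.16, whereas 49.8% of all genes were above 0. Srebf2 itself was not called in any comparison.

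The list of fatty acid synthesis genes, the targets of SREBP1, had 15 of 15 members tested, with 3 higher and 0 lower against sEV NORM and 1 and 0 against sEV CTRL, beside the same 2.25% and 1.39% of all genes higher. The medians were 0.86 and 0.58, and without sEV HYP replicate 1 they were 0.18 and 0.08. Without sEV HYP replicate 2 these medians were 1.27 and 0.94. With sEV CTRL replicate 2 left out, 7 of the 15 were higher against sEV NORM and 0 against sEV CTRL. In that fit, 986 and 1472 of 17701 genes tested were called in either direction. Pnpla3, a lipid droplet protein, rose by 1.14 (SE 0.29, edgeR unadjusted P = 0.00341) against sEV NORM, and was lower in the sEV NORM than in the sEV CTRL glands (-0.68, edgeR unadjusted P = 0.0303). It was the 1 gene of the list called between sEV NORM and sEV CTRL, where 0.734% of all genes were lower. There, 15 of the 15 were below 0, with a median of -0.16. Scd2, a desaturase, rose by 1.07 against sEV NORM (edgeR unadjusted P = 0.0117). Acly, which makes cytosolic acetyl-CoA, was called in both comparisons of sEV HYP (1.56 over sEV NORM, 1.497 over sEV CTRL), although the sEV HYP glands, at 363 and 1554 CPM, overlapped both other groups.

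The machinery that processes and degrades SREBPs and INSIGs had 12 of 12 genes tested and 0 called in each comparison, with medians of -0.07 (sEV HYP over sEV NORM) and -0.01 (sEV HYP over sEV CTRL). Mbtps1, the first protease that cuts SREBPs, was at 55.1 to 65.2 CPM with sEV NORM and at 51.0 and 53.0 with sEV HYP. Sterol uptake and intracellular transport had 16 of 18 genes tested, with 1 higher and 1 lower against sEV NORM (median -0.03) and 1 higher against sEV CTRL (median -0.03), where 2.25% and 1.7% of all genes were higher and lower against sEV NORM and 1.39% higher against sEV CTRL. Without sEV HYP replicate 1, 0 were called against sEV CTRL. The lower gene was Lipa (-0.37, edgeR unadjusted P = 0.0497), the lysosomal lipase that frees cholesterol from its esters. In this list, 0 genes were lower against sEV NORM with DESeq2 on all samples, its size factors in edgeR or the replicate block. The same held with sEV CTRL replicate 1 or any 1 sEV NORM library left out, whereas 2 were lower with the white adipocyte covariate. The list of LXR targets leaves out Abca1, Abcg1 and Srebf1, so it does not cover every LXR target. It had 10 of 12 genes tested and 0 called in each comparison, with a median of -0.06 in both comparisons of sEV HYP. Against sEV CTRL, 3 of the 10 lay below without overlap and 0 above, beside 12.8% of all genes without overlap. With the muscle covariate, 2 were lower against sEV NORM and 3 against sEV CTRL, with 0 higher in both. Over all genes, 806 and 581 of 17858 were then called. With the white adipocyte covariate, 1 was lower in each, beside 1203 and 817 genes called. Some other alternatives called 1 gene of the list, higher in some and lower in others. Arl4c was at 60.6 to 88.4 CPM with sEV NORM and at 42.2 and 64.2 with sEV HYP. Among 7 partners and corepressors of the LXRs, Nrip1, a corepressor of nuclear receptors, was the 1 gene called against sEV NORM (0.66, edgeR unadjusted P = 0.0258), beside 2.25% of all genes higher. With the muscle covariate, without sEV NORM replicate 1 or without sEV NORM replicate 2, 0 of this list were called against sEV NORM. Of 6 genes that make or break oxysterols, the ligands of the LXRs, 5 were tested and 0 called. Sult2b1, which sulfates sterols, was at 0.563 to 1.66 CPM with sEV NORM and 1.50 and 2.98 with sEV HYP. After adjustment over all genes, the edgeR P of Hmgcs1 and Sc5d in sEV HYP against sEV NORM was 0.956, and that of every other list gene named here was 1.00.

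**Figure D4:**
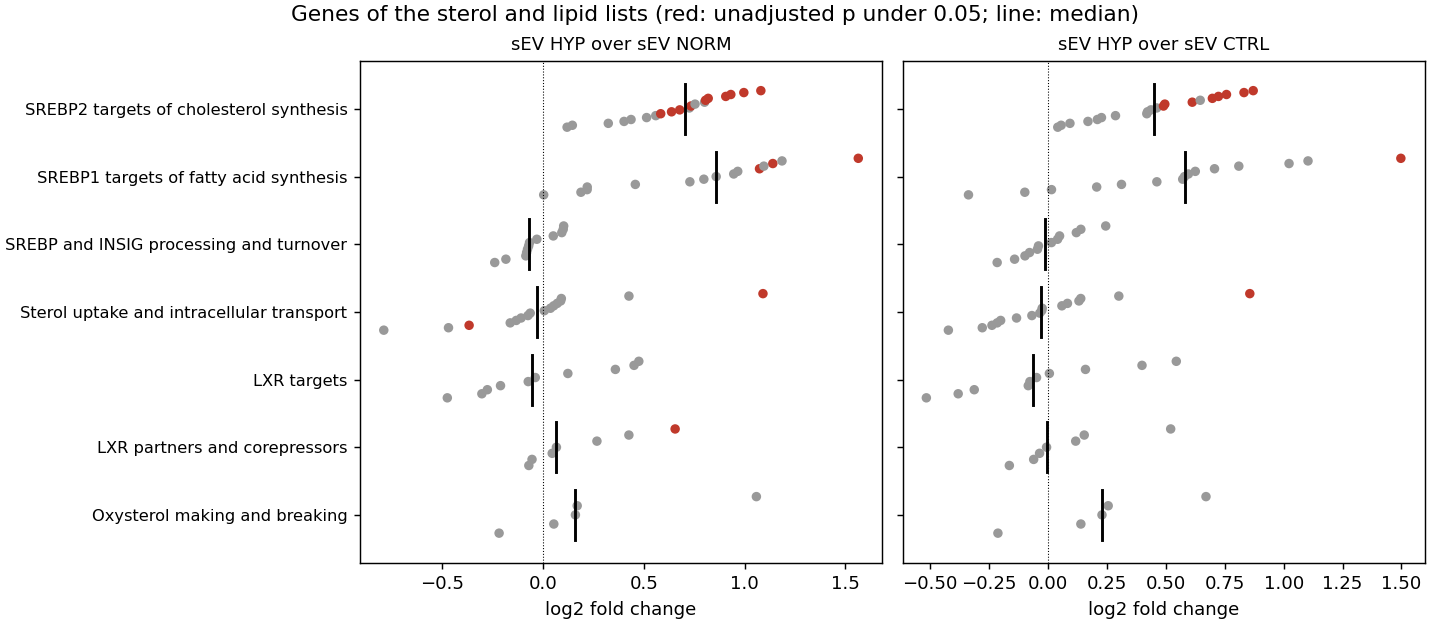
Log2 fold change (horizontal axis) of every tested gene of 7 lists, with a point a gene, red at an unadjusted edgeR P under 0.05, and a line at the median of each list, for sEV HYP over sEV NORM and over sEV CTRL. The cholesterol synthesis genes lie right of 0 in both panels, with medians of 0.70 and 0.45. The listed LXR targets, which leave out Abca1, Abcg1 and Srebf1, scatter around 0, with medians of -0.06.

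In whole glands, fewer cells of a type and less RNA per cell cannot be told apart, so markers of the cell types are given beside these results. The 10 white adipocyte markers, among them Adipoq, were all detected, and summed to 8051 to 12688 CPM with sEV CTRL, 6889 to 11022 with sEV NORM and 7426 to 12112 with sEV HYP. The 11 macrophage markers summed to 667 to 766, 563 to 945 and 644 to 760 CPM, and the 10 luminal epithelium markers to 949 to 1889, 1445 to 1716 and 1520 to 2108 CPM, so the labelled tissue carried its markers. A large part of each luminal sum was Prlr alone, at 486 to 1229 CPM. The 11 skeletal muscle markers summed to 587 to 7435 CPM with sEV CTRL, 7.89 to 2643 with sEV NORM and 3966 to 11241 with sEV HYP. Of these, 9 were above without overlap in sEV HYP against sEV NORM, and 1 was at 0 in sEV NORM replicate 2. The 8 brown adipocyte markers summed to 27.4 to 38.0, 32.0 to 38.0 and 39.4 to 71.0 CPM, and the 7 basal epithelium markers to 307 to 473, 318 to 417 and 496 to 501 CPM. The summed muscle markers were higher in both sEV HYP glands than in all sEV NORM glands. The sums of the brown adipocyte and basal markers were highest in the sEV HYP glands, but by the mean log2 CPM over each list the basal markers overlapped both other groups and the brown adipocyte markers overlapped sEV NORM. Of 6 brown adipocyte markers tested, 2 lay above without overlap in each comparison of sEV HYP, and of 7 basal markers 2 did against sEV NORM and 3 against sEV CTRL. Over all genes tested, the groups did not overlap, in either direction, in 22.8% against sEV NORM and 12.8% against sEV CTRL. The counts of muscle, brown adipocyte and basal markers stand beside these shares. With the mean log2 muscle marker level as a covariate, Srebf1 was at 0.75 and 0.70 and Insig1 at 1.15 and 0.89 against sEV NORM and sEV CTRL, and both kept their calls. With the white adipocyte or the macrophage markers as a covariate, Srebf1 kept its calls and Insig1 its call against sEV NORM, whereas Insig1 against sEV CTRL was at 0.83 (edgeR unadjusted P = 0.0668) and 0.82 (edgeR unadjusted P = 0.0509). The part of the brown adipocyte and basal markers in these results was not tested. The 5 B cell markers summed to 812 to 1814, 809 to 1990 and 570 to 1240 CPM, and the 5 endothelium markers to 512 to 650, 496 to 595 and 467 to 542 CPM. The 8 skin and sebaceous gland markers summed to 53.8 CPM in sEV NORM replicate 3, where Krt10 was at 37.8 CPM, and to 11.4 to 14.0 CPM in all other glands. Lor and Flg were at 0 or under 1 CPM except for Lor in sEV NORM replicate 3.

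Across the 8 glands, the 9 genes were also set against the mean log2 CPM of the white adipocyte, macrophage, skeletal muscle and luminal markers, in 36 relations, and 0 passed after adjustment. The strongest of these 36 was Insig2 with the white adipocyte markers (r = 0.84, rho = 0.76, exact permutation P = 0.00791, adjusted P = 0.285), which was 0.59 without the 2 glands farthest from the median. Abcg1 went the other way with the same markers (r = -0.80, exact permutation P = 0.0217, adjusted P = 0.390), and was at -0.50 without those 2 glands. Nr1h3 with the same markers had r = 0.70 (adjusted P = 0.621, permutation). The other marker lists, among them the B cell markers, were not set against the 9 genes. The B cell markers summed to 570 CPM in sEV HYP replicate 2 and 1990 CPM in sEV NORM replicate 2, where Abcg1 was at 43.6 and 67.6 CPM. In sEV HYP replicate 1 they summed to 1240 CPM, with Abcg1 at 67.7. Whether Abcg1 follows the B cell markers was not tested.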

How the data were processed

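RNA of 8 whole mammary glands (3 sEV CTRL, 3 sEV NORM, 2 sEV HYP) was analyzed, with groups taken from the sample labels. Per the study's methods, the authors used STAR for alignment (mm10) and RSEM 1.2.12 to estimate expression of the genes in Ensembl release 89. The deposited table holds counts as whole numbers that were not normalized, and how the estimates became whole numbers is not given in the sources used here. Total counts of 18194996 to 24622569 per library set the counting precision. GENCODE M21 (GRCm38) gave symbols and positions for 51596 of 51789 genes, and 0.0389% of the counts were in genes without a symbol.

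The software was edgeR 4.0.16 under R 4.3.3, with a low-count filter (filterByExpr, minimum 10) that kept 17858 genes, TMM factors of 0.975 to 1.02, and a two-sided quasi-likelihood F-test in a single model of the 3 groups, with 5 residual and 4.08 prior degrees of freedom and a common biological coefficient of variation of 0.297. A call is an unadjusted P under 0.05, a threshold that the study uses for genes in its results and not in its methods. Adjustment was by Benjamini-Hochberg across the whole tested table. A prior count of 2 went into log2 CPM. The procedure was also run on counts simulated from its own fitted spread. Such counts cannot show how it performs on the real differences between these glands. Single ratios and correlations between genes were tested by exact permutation over libraries.

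The 9 genes, the gene lists and the tests were chosen with earlier results of these data known. From each pathway list, genes with P under 0.05 were named, at most 5 a comparison, or the gene with the smallest P where none passed; genes most like Srebf1, Insig1, Abca1 and Abcg1 were named by Pearson's r. Some genes that this rule selects are not reported here. The 18 alternatives were DESeq2 1.42.0 on all groups or on the 2 compared, its size factors in edgeR, edgeR on the 2 groups, both other filters, the replicate number as a block, covariates of muscle, white adipocyte and macrophage markers (mean log2 CPM), and each library left out. Replicates of a group differed by more than counting noise, and none was a duplicate.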

Additional observations from a re-analysis of the deposited data

How the results depend on the processing

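The alternatives differed in the number of genes tested. For sEV HYP against sEV NORM, the genes with an unadjusted P under 0.05 were 706 of 17858 in the main fit. They were 1195 of 26293 with DESeq2 on the 2 groups, 1102 of 27246 without the filter on low counts and 1203 of 17858 with the white adipocyte covariate. Against sEV CTRL they were 438 of 17858 in the main fit, 672 of 27246 without the filter and 817 of 17858 with the white adipocyte covariate. For sEV NORM against sEV CTRL they were 290 of 17858 in the main fit, 533 of 27246 without the filter and 538 of 17858 with the macrophage covariate. With libraries left out in turn, these numbers ranged from 415 (without sEV HYP replicate 2) to 986 (without sEV CTRL replicate 2), from 341 (without sEV NORM replicate 3) to 1472 (without sEV CTRL replicate 2) and from 222 (without sEV NORM replicate 2) to 1018 (without sEV CTRL replicate 2). For sEV HYP against sEV NORM, 56.9% of the calls were higher, and 34.0%, 46.6% and 72.8% with the muscle, white adipocyte and macrophage covariates. The cause of these shifts was not tested.

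Of the 9 genes, 1 to 2 were called against sEV NORM and 0 to 2 against sEV CTRL with a library left out, lowest without sEV HYP replicate 1 in both, and 0 between sEV NORM and sEV CTRL. Against sEV CTRL, 1 was called with edgeR on the 2 groups, with the white adipocyte covariate and with the macrophage covariate. Genes of the pathway lists called numbered 25 with DESeq2 on the 2 groups for sEV HYP against sEV NORM, and, with a library left out, 10 to 23, 4 to 13 and 1 to 8 in the 3 comparisons. A fit that leaves a single sEV HYP library assumes that it varies like the other groups.

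The labels do not say whether replicate numbers pair the groups. Correlations of same-numbered libraries' deviations from their group means ran from -0.416 to 0.369, and those of differently numbered libraries from -0.369 to 0.467. The deviations of the 2 sEV HYP libraries mirror each other by construction, so these values cannot settle whether same-numbered libraries share a batch. With the replicate number as a block, 769, 401 and 252 genes were called in sEV HYP against sEV NORM, sEV HYP against sEV CTRL and sEV NORM against sEV CTRL, among them 2, 2 and 0 of the 9. Of the 15 fatty acid synthesis genes, 7 and 5 were then higher in sEV HYP against sEV NORM and sEV CTRL. Over all 17858 genes tested, 51.0% of the 769 calls and 67.6% of the 401 calls were higher. With this block, the log2 fold change of Abcg1 against sEV CTRL turned to -0.0035.

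Other log2 fold changes that turned sign were all of genes with no call. Against sEV NORM these were Insig2 (-0.14) and Abcg1 (0.12) with the muscle covariate and Srebf2 (-0.0010) with the macrophage covariate. Against sEV CTRL they were Nr1h3 with DESeq2 on the 2 groups (-0.0016) and with the muscle covariate (-0.0069), Abca1 with the muscle covariate (-0.0043) and Abcg1 with the white adipocyte covariate (-0.077). Between sEV NORM and sEV CTRL they were Srebf2 with the muscle covariate (-0.016) and Nr1h3 with the white adipocyte covariate (0.068). With libraries left out, sEV HYP against sEV NORM ranged from -0.23 to 0.31 for Srebf2, -0.087 to 0.069 for Insig2, -0.11 to 0.18 for Nr1h3, -0.17 to 0.041 for Abca1 and -0.44 to 0.19 for Abcg1. Against sEV CTRL the ranges were -0.13 to 0.41 for Srebf2, -0.16 to 0.26 for Nr1h3, -0.080 to 0.26 for Abca1 and -0.29 to 0.33 for Abcg1. Between sEV NORM and sEV CTRL they were -0.20 to 0.17 for Srebf1, -0.088 to 0.23 for Srebf2, -0.27 to 0.13 for Scap, -0.51 to 0.089 for Insig1, -0.26 to 0.069 for Nr1h2 and -0.17 to 0.22 for Nr1h3.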
